A study of Mus musculus with 36 samples.

Results

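The comparison described here sets cardiomyocyte chromatin of the border zone, the surviving heart muscle next to an infarct, against that of the sham-operated left ventricle, 14 days after surgery. It was read by ATAC-seq, in which a transposase cuts and tags accessible DNA, so that the number of tags in a region rises with its accessibility. Its members were every region in the 3 deposited day 14 lists, 40980 of the 122759 regions that the lists of days 4, 7 and 14 hold. One list held 5501 border zone-higher regions (13.4% of all), another held 2765 sham-higher regions (6.75%), and the third held 32714 non-differential regions. The border zone library came from mice with a myocardial infarction and the sham library from sham-operated mice. Both came from FVB/N mice carrying Myh6-MerCreMer, a tamoxifen-inducible Cre driven by a cardiomyocyte promoter, and nTnG, a reporter that puts GFP into nuclei after recombination. All of these mice had received tamoxifen at 20 mg/kg. From each group 50000 GFP-positive nuclei were sorted; the labels state neither the age of the mice nor how many were pooled. GFP marks nuclei in which this Cre had recombined the reporter. Whether the sort selects for the state of the cell on day 14 was not tested.

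There was 1 library a side and therefore no replicate and no test. Every comparison is between these 2 libraries, and every interval is an exact 95% binomial interval, or an order-statistic interval for a median, that covers counting error only. In bulk nuclei, a region open in fewer nuclei and a region less open in each nucleus cannot be told apart. The genes at these regions were not assigned, because coordinates are mm9 and no mm9 annotation was used here, so the cardiomyocyte label was not checked against marker genes and no sequence is shown. Regions were likewise not checked for repeated sequence, where reads can match several places and tags need not follow accessibility.

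Accessible chromatin in muscle nuclei marks promoters and enhancers, where regulatory proteins displace nucleosomes. After an infarct, border zone cardiomyocytes are known to turn down genes of contraction and oxidative metabolism and to turn on stress and fetal genes. Open regions often lie in groups along a chromosome around the genes they serve, so position and neighbourhood are part of the description of a chromatin change.

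The listed regions carried a median of 161 tags in the border zone library and 216 tags in the sham library. The smallest region held 149 tags in both libraries together, the median region 374 and the largest 28658. The authors called a region differential where the larger of the listed values was at least 150 and at least 175% of the smaller one; this ratio is the fold threshold used throughout. The border zone tags were deposited in scaled form. Whole tags were recovered from them, and each region's border zone to sham ratio was divided by the median ratio over all regions, 0.749. The log2 ratio below is this median-centred ratio of whole tags, positive where the border zone was higher.

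The 2 differential lists made up 20.2% of the listed regions. With the median-centred ratio, 5178 regions lay past the same threshold in the border zone direction, 12.6% of all, and 2876 in the sham direction, 7.02% of all, together 19.7%. The border zone share of regions past the threshold was 64.3% (63.2 to 65.3%). The 2 ways of calling overlapped but were not the same. Of the border zone-higher list 430 regions, and of the sham-higher list 170, were no longer past it. Of the non-differential list, 107 regions were past it towards the border zone and 281 towards sham. The regions nearest to the authors' threshold show how fine it was. Just inside the border zone-higher list, chr3:37277251-37278250 held 217 border zone tags and 170 sham tags, a listed fold of 1.75027. Just outside it, chr2:30567751-30568250 held 402 border zone tags and 315 sham tags, a listed fold of 1.74989. Just inside the sham-higher list, chr12:33998251-33999250 held 90 border zone tags and 186 sham tags, and just outside it chr12:102057751-102058250 held 258 and 619.

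Most differences were about 2-fold. The median log2 ratio was 1.05 in the border zone-higher list (1.04 to 1.06), or 2.07-fold, and the sham-higher list had a median of -0.98 (-0.99 to -0.97), or 1.97-fold towards sham. The non-differential list had a median of -0.05. The border zone-higher list reached further out, with 156 regions at 4-fold or more, against 12 in the sham-higher list. Of those, 17 and 2 had 300 or more tags. Border zone-higher regions had a median of 149 border zone tags and 97 sham tags, in whole tags not scaled between the libraries. The minimum for the larger listed value is reached with fewer whole tags in the border zone than in sham. How much of these medians comes from this limit was not tested. Sham-higher regions had a median of 90 border zone tags and 238 sham tags. Non-differential regions had a median of 172 border zone tags and 239 sham tags.

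The number of tags and the direction of the difference went together. In the decile of regions with the fewest tags, 149 to 231 in total, 58.6% were border zone-higher and 10.4% sham-higher. In the third decile, which starts at 260 tags, the shares were 9.09% and 6.76%, and in the top decile, from 1163 tags, they were 2.81% and 2.88%. The minimum of 150 for the larger value sets part of this, because a region with few tags in total enters the lists only if it is unequal. The minimum also differs by side. Most border zone values are listed as whole tags times 1.37, so fewer whole tags reached it in the border zone than in sham. How much of the lean to the border zone comes from this limit was not tested. Among the 26950 regions of 300 or more tags, 1816 lay past the fold threshold in the border zone direction and 1718 in the sham direction. The border zone share there was 51.4% (49.7 to 53.0%). By the deposited lists there were 1927 border zone-higher and 1590 sham-higher regions of 300 or more tags, a share of 54.8% (53.1 to 56.4%). The excess towards the border zone was thus smaller in regions with many tags by both ways of calling. The spread of the ratio was not that of counting. The SD of the log2 ratio was 0.53 over the regions of 300 or more tags, against 0.13 from counting error, and in the top decile it was 0.41 against 0.07.

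**Figure D1:**
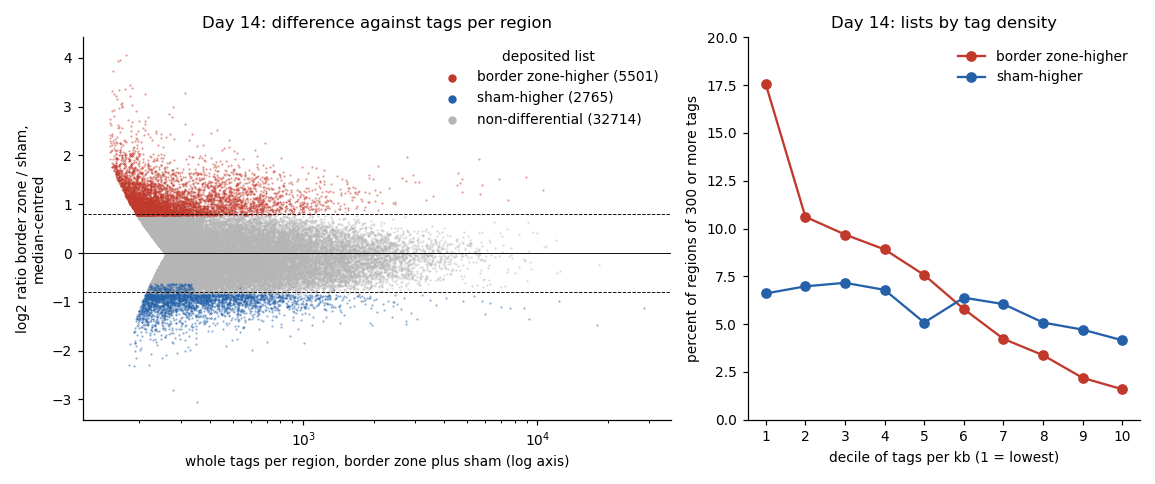
Left, the median-centred log2 ratio of border zone over sham tags against whole tags per region on a log axis, 1 point for each of the 40980 regions, coloured by deposited list, with dashed lines at the fold threshold. Right, the percent of regions of 300 or more tags in each differential list, by decile of tags per kb: the border zone-higher share is 17.6% in the lowest decile and 1.60% in the highest, and the sham-higher share 6.60% and 4.16%.

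Tag density, the tags of both libraries per kb of region, separated the directions further. Border zone-higher regions had a median of 240 tags per kb, sham-higher regions 323 and non-differential regions 399. These medians are over all regions, so the limit that differs by side enters them. Over the regions of 300 or more tags, the border zone-higher share was 17.6% in the lowest decile of density and 1.60% in the highest, whereas the sham-higher share was 6.60% and 4.16%. Sparse regions therefore leaned to the border zone, while dense ones were more often sham-higher than border zone-higher. Where a border zone-higher region abutted a non-differential one, with no base between them, the border zone-higher region was the sparser in 94.3% of 2015 pairs, with a median of 251 tags per kb against 714. A region of 500 bp needs a higher density to reach the minimum of 150, so the pairs were also taken with both regions of at least 1000 bp and 300 tags. In those the border zone-higher region was the sparser in 86.2% of 318 pairs (81.9 to 89.8%). Sham-higher regions were also the sparser side, in 82.0% of 939 pairs with an abutting non-differential region, and in 71.0% of 214 pairs under the same limits (64.5 to 77.0%).

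Width divided the lists differently. All 1728 regions of 500 bp were non-differential. Of these, 1653 lay in a run of regions with no gap, which the files cut into regions of different lists, so their width depends on that cutting. Among regions of 300 or more tags, those over 500 and up to 1000 bp were 6.90% border zone-higher and 8.71% sham-higher. For those over 1000 and up to 1500 bp the shares were 8.22% and 2.98%, and for those over 3000 bp 7.49% and 1.44%. Sham-higher regions were thus mostly narrow. With 300 or more tags, 82.5% of them were exactly 1000 bp, against 53.8% of border zone-higher regions and 54.2% of non-differential ones. Over all regions these shares were 89.6%, 81.5% and 64.9%.

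The regions with the largest differences, among those of 300 or more tags, were single elements of 1000 to 1500 bp. At chr15:90262251-90263250 there were 275 border zone tags and 38 sham tags, which is 9.67-fold (6.87 to 14.0). The same place on day 7 held 93 border zone tags and 13 sham tags, 10.6-fold on that day's own scale. The next in the border zone direction was chr18:11401751-11402750, with 259 border zone tags and 55 sham tags, 6.29-fold (4.69 to 8.58). The other 3 were chr12:86138251-86139750, chr2:14728751-14730250 and chr10:83247751-83249250, at 5.45- to 5.74-fold. None of the 5 was listed on day 4, and 3 of them were listed on day 7.

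In the sham direction, chr8:32051251-32052250 stood alone, with 29 border zone tags and 323 sham tags, which is 8.34-fold towards sham (5.69 to 12.6). It was listed on neither day 4 nor day 7. The next was chr4:10242751-10243750, with 49 border zone tags and 264 sham tags, 4.03-fold towards sham (2.96 to 5.59). It held 24 border zone tags and 54 sham tags on day 7, an interval that includes no difference, and 133 and 119 on day 4, which also includes no difference. The other 3, chr9:80871251-80872250, chr7:95443251-95444250 and chr12:80490751-80491750, were 3.80- to 3.97-fold higher in sham. Of these, chr7:95443251-95444250 was also higher in sham on day 4, 1.67-fold (1.33 to 2.09), and on day 7, 3.33-fold (2.09 to 5.54). On day 4 chr9:80871251-80872250 was 1.65-fold higher in sham (1.196 to 2.29), while the border zone over sham fold at chr12:80490751-80491750 was 1.18 (0.83 to 1.69), and neither was listed on day 7.

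The sham-higher regions with the most tags were larger elements. The richest, chr14:35380751-35388250, spans 7500 bp and held 7322 border zone tags and 21336 sham tags, 2.18-fold towards sham (2.12 to 2.24). Its place was 1.93-fold higher in sham on day 7 (1.83 to 2.03). It abuts the richest non-differential region, chr14:35364251-35380750, of 16500 bp, where there were 7111 border zone tags and 11274 sham tags, 1.19-fold towards sham (1.15 to 1.22). On day 4, 1 listed region with 6775 border zone tags and 7439 sham tags overlapped both segments. Its fold was 1.03 towards sham with an interval that included 1, so day 4 gives no value for either segment alone. Side by side along one stretch, the day 14 ratio thus differed between these segments beyond counting error. The files cut such a stretch into regions of different lists, so a difference between the segments follows in part from the cut. At chr14:55587751-55590250 there were 3814 border zone tags and 14181 sham tags, 2.78-fold towards sham (2.69 to 2.89). On day 4 this place was 1.85-fold higher in sham (1.58 to 2.16), and it was not listed on day 7. At chr5:122557251-122560750 there were 3418 border zone tags and 8969 sham tags, 1.96-fold towards sham (1.89 to 2.04), and the same place was higher in sham on day 4, 1.62-fold (1.52 to 1.74), and on day 7, 2.24-fold (2.07 to 2.42). The richest border zone-higher regions were chr2:98503251-98504750, with 6864 border zone tags and 3749 sham tags or 2.45-fold, chrX:166436251-166447250, with 6145 and 2798 or 2.93-fold, and chr9:3007751-3009250, with 4616 and 2887 or 2.14-fold.

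Of the 20 chromosomes with at least 100 listed regions, the 19 autosomes had more border zone-higher than sham-higher regions, and X did not. The border zone-higher share ran between 9.11% on X and 15.7% on chromosome 5, and the sham-higher share between 4.51% on chromosome 19 and 11.7% on X, with 8.83% on chromosome 14 next. Of the 384 regions on X, 35 were border zone-higher and 45 were sham-higher. With 300 or more tags the pattern of X was not its own. In those regions the sham-higher share was 7.63% on X, against 8.36% on chromosome 14, and 6 of the 20 chromosomes had more sham-higher than border zone-higher regions. The 108 regions on contigs that are not assembled into chromosomes included 45 border zone-higher regions and 1 sham-higher region. Of the 45, 22 were among the 26 regions on unplaced contigs of Y and 12 among the 20 on contigs of no known chromosome. On the assembled Y, 2 of 3 listed regions were border zone-higher and 0 were sham-higher.

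**Figure D2:**
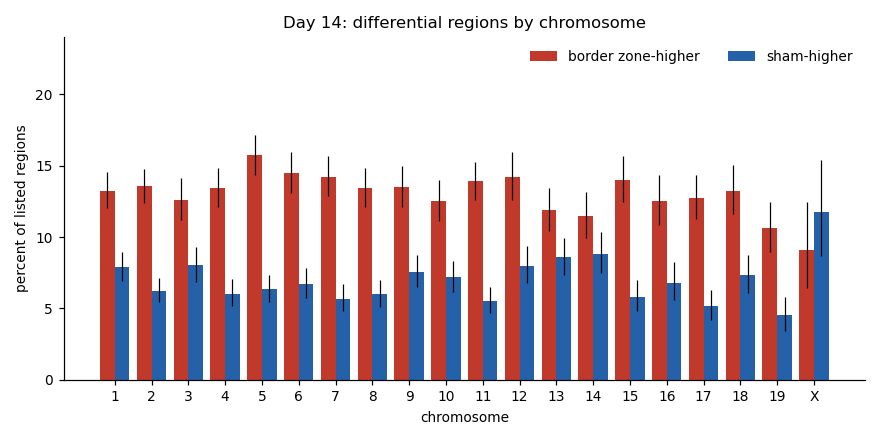
Percent of the listed regions of each chromosome that are border zone-higher (red) and sham-higher (blue), with exact 95% binomial intervals that cover counting error only. X has the highest sham-higher share, 11.7%, and the lowest border zone-higher share, 9.11%, with wide intervals.

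Along the chromosomes, counted from the first to the last listed region, the first decile of that span was 13.04% border zone-higher and 8.26% sham-higher, and the last decile was 15.0% and 5.34%. The median log2 ratio of these deciles was -0.04 and 0.06. The shares between them did not follow a steady course, with 14.24% border zone-higher in the sixth decile. Among regions of 300 or more tags, the first decile was 7.67% border zone-higher and 7.71% sham-higher, and the last was 8.19% and 4.63%. The extreme ends stood out more. Within 100 kb of the last listed region of a chromosome, 20 of 71 regions were border zone-higher, 28.2% (18.1 to 40.1%), and 3 were sham-higher. Within 100 kb of the first, 14 of 55 were border zone-higher, 25.5% (14.7 to 39.0%), and 3 were sham-higher. The last listed region itself was border zone-higher on 10 of 20 chromosomes and sham-higher on 0.

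5 of these last regions have a width that is not a multiple of the 500 bp step of the other regions, and all 5 were border zone-higher. They lie on chromosomes 2, 5, 11, 18 and X and held 794 to 3857 border zone tags and 386 to 1956 sham tags. At chr2:181746751-181748087, there were 3857 border zone tags and 1956 sham tags, 2.63-fold (2.49 to 2.78). Their 5 folds lay between 2.56 and 2.85. On day 4 the same 5 places were listed as well, with folds between 0.93 and 1.12 whose intervals all included 1. On day 7, the place on chromosome 2 was listed, at 2.57-fold (2.19 to 3.01), and the other 4 were not.

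Regions often lay in stretches with no gap between them, and the files cut such a stretch into regions of different lists. There were 38017 stretches, 2460 of them with 2 or more regions, and 13 of those held both directions. Of the border zone-higher regions 32.2% lay in a stretch with others, of the sham-higher regions 29.7%, and of the non-differential regions 8.65%. Non-differential regions took on the sign of the stretch they lay in. Those beside a border zone-higher region had a median log2 ratio of 0.38, and 84.6% of 1916 were above 0. Those beside a sham-higher region had a median of -0.53, and 95.1% of 896 were below 0. Non-differential regions that lay alone had a median of -0.07.

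The likeness of neighbours went beyond touching regions. The Pearson correlation of the log2 ratio between neighbouring regions, given as a description over pairs that share both libraries, was 0.55 for abutting regions (2963 pairs), 0.35 at gaps of 1 to 5 kb (7001 pairs), 0.23 at 10 to 25 kb (7986 pairs) and 0.11 over 100 kb (4956 pairs). With both regions at 300 or more tags these were 0.64, 0.39, 0.22 and 0.09. When both neighbours were differential, 94.8% of 135 pairs separated by a gap of up to 1 kb had the same direction, against 63.3% of 341 pairs over 100 kb apart. Of the listed differential regions 66.5% are border zone-higher, which is a base for single regions and not for like pairs. The 9 abutting pairs all had opposite directions, which holds by construction if a stretch is cut only where the list changes. The nearest differential region at 5 to 20 kb had the same direction for 89.6% of border zone-higher regions and for 61.3% of sham-higher regions. The base differs by direction, since 66.5% of the listed differential regions are border zone-higher and only the remainder are sham-higher. Both values lay above the base of their own direction, so they do not rank the directions by likeness of neighbours. Non-differential regions shifted with the differential regions around them. With 0 differential regions within 50 kb their median log2 ratio was -0.11, with 4 or more border zone-higher ones and 0 sham-higher ones it was 0.28, and with 4 or more sham-higher ones and 0 border zone-higher ones it was -0.50.

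The directions differed in how they were grouped. Another region of the same list lay within 50 kb of 57.9% of border zone-higher regions and of 27.7% of sham-higher regions, where the longer list alone gives more such neighbours. For regions of 300 or more tags, where the lists are closer in length, the shares were 37.1% and 21.9%. Joined at gaps of up to 20 kb, border zone-higher regions formed 283 chains of 3 or more, which held 20.6% of the list, and sham-higher regions formed 29, which held 4.85%. The longest chains had 27 and 20 regions. A sham-higher region was more often solitary. Stretches over 50 kb from any other were 12.8% border zone-higher and 15.2% sham-higher, whereas stretches 1 kb or less from another were 16.3% border zone-higher and 4.82% sham-higher. With 300 or more tags these were 9.74% and 14.59% for the solitary stretches, and 13.8% and 5.13% for the close ones. By the median-centred ratio of the stretch, 11.1% of solitary stretches were past the fold threshold towards the border zone and 14.5% towards sham. For close ones these were 10.2% and 3.09%, so only the sham side kept its contrast. With 300 or more tags, the border zone values were 7.33% for solitary and 5.89% for close stretches. The solitary stretches had a median of 343.5 tags and the close ones 485, and the part of this difference in the shares was not tested beyond the limit of 300 tags.

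**Figure D3:**
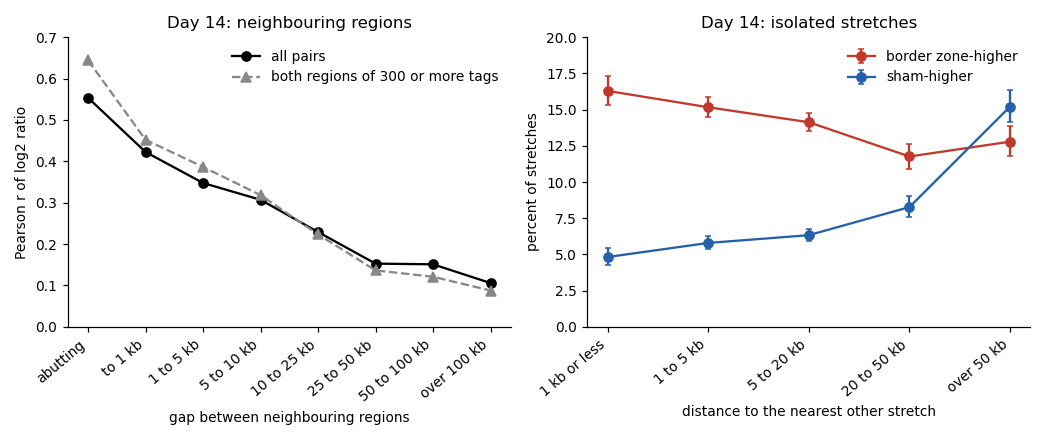
Left, Pearson correlation of the log2 ratio between neighbouring regions by the gap between them, for all pairs and for pairs with 300 or more tags in both regions; it is 0.55 for abutting regions and 0.11 over 100 kb. Right, percent of stretches that hold a border zone-higher or a sham-higher region by distance to the nearest other stretch, with exact 95% binomial intervals; the sham-higher share is 4.82% at 1 kb or less and 15.2% over 50 kb.

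On a grid of 100 kb, 12418 windows held a listed region. Border zone-higher regions outnumbered sham-higher ones by 5 or more in 72 windows, and the reverse held in 7. Of the 589 windows with 10 or more regions, 19 had every log2 ratio above 0 and 11 had every one below 0. The median SD of the log2 ratio within such a window was 0.47.

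The largest block of border zone-higher chromatin lay on chromosome 5, in 3 windows in a row between 14900001 and 15200000. In chr5:14900001-15000000 all 15 listed regions were border zone-higher. They held 123 to 862 border zone tags (median 277) and 68 to 482 sham tags (median 166). The window was 2.34-fold higher in the border zone (2.24 to 2.45), and the log2 ratios of its regions had an SD of 0.12, where counting error alone gives 0.15. The spread between the regions of this window was thus no larger than counting error. In the next window 12 of 14 regions, and in the one after it 14 of 17, were border zone-higher, at 2.32- and 2.21-fold, and the other regions were non-differential with log2 ratios of at least 0.45. Their day 7 folds towards the border zone were 2.09 to 2.24. On day 4 they were 1.80- to 2.01-fold higher, from 1 to 6 listed regions each, which held 96 to 386 border zone tags and 51 to 229 sham tags per window.

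The window at chr6:47600001-47700000 had as many border zone-higher regions, 15 of 28, in another arrangement. Its border zone-higher regions had log2 ratios of 0.92 to 1.19 and alternated with 13 non-differential ones, which had a median of 0.16. The border zone-higher regions were sparse, with a median of 423 tags per kb, 700 border zone tags and 428 sham tags. The non-differential regions between them were dense, with a median of 3200 tags per kb, 1749 border zone tags and 2161 sham tags. The fold over all of its regions was therefore 1.30 (1.28 to 1.32), much smaller than that of its border zone-higher regions. Its dense regions recurred at similar steps, among them those centred at -44.75, -40.5, -36 and -31.75 kb from the window's centre. Whether this layout reflects repeated sequence was not tested. On day 4 the fold of this window was 0.99 (0.97 to 1.01), from 16664 border zone tags and 17896 sham tags, and on day 7 it was 1.29 (1.27 to 1.32). The window at chr4:154500001-154600000 had 12 border zone-higher regions of 32 and was 1.41-fold higher in the border zone (1.36 to 1.45), with 31 of 32 log2 ratios above 0. Its fold was 1.004 on day 4 (0.93 to 1.08) and 1.56 on day 7 (1.47 to 1.65).

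In the sham direction, chr13:12000001-12100000 held 35 regions, 19 of them sham-higher, and all 35 log2 ratios were below 0, from -1.27 to -0.24. They held 49 to 806 border zone tags (median 116) and 150 to 1477 sham tags (median 269). The window was 1.70-fold higher in sham (1.65 to 1.751). Its 16 non-differential regions had a median log2 ratio of -0.59. On day 7 the window was 2.21-fold higher in sham (2.06 to 2.37), with 19 of 25 regions sham-higher. The day 4 ratio favoured the border zone, 1.11-fold (1.05 to 1.18), with 3 of 22 regions border zone-higher and 1 sham-higher.

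The window at chr5:122900001-123000000 had 15 sham-higher regions of 30 and 1 border zone-higher region. It was 1.56-fold higher in sham (1.53 to 1.59), 29 of 30 log2 ratios were below 0, and it was also higher in sham on day 4, 1.39-fold (1.34 to 1.43), and on day 7, 2.13-fold (2.05 to 2.20). The window at chr14:55500001-55600000, which holds the region of 14181 sham tags, carried 17576 border zone tags and 45511 sham tags over 16 regions. It was 1.94-fold higher in sham (1.90 to 1.97), with 7 sham-higher regions, and on day 4 it was 1.74-fold higher in sham (1.68 to 1.80), with 8 sham-higher regions of 16. On day 7 the window was 1.41-fold higher in sham (1.25 to 1.59), from 399 border zone tags and 837 sham tags, with 2 of 7 regions sham-higher. The last 2 windows, at chr12:104500001-104600000 and chr18:80500001-80600000, had 6 sham-higher regions each and were each about 1.5-fold higher in sham.

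**Figure D4:**
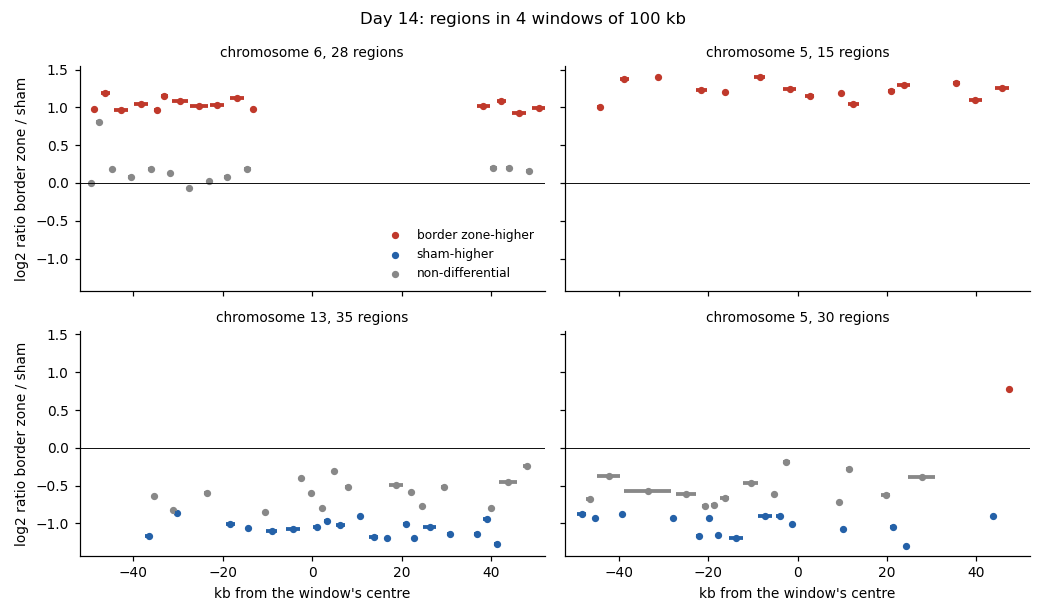
Median-centred log2 ratio of border zone over sham tags of each region in 4 windows of 100 kb against distance from the window's centre, with bars as wide as the regions. In the upper row, the chromosome 6 window alternates between border zone-higher regions near 1 and non-differential ones near 0, and all 15 regions of the chromosome 5 window lie above 1; in the lower row, all 35 regions of the chromosome 13 window and 29 of 30 of the other chromosome 5 window lie below 0.

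Set beside the earlier days, the ratios of day 14 were mostly like those of day 7 in sign and size at places listed on both days. Regions that overlapped by at least 1 bp were compared, each day on its own median-centred scale. Of the border zone-higher regions of day 14, 31.4% were listed on day 4 and 64.2% on day 7. Of the non-differential regions 72.5% were listed on day 4 and 71.4% on day 7, with medians of -0.08 and -0.10. Where listed, the border zone-higher regions had a median log2 ratio of 0.31 on day 4, with 70.4% above 0, and of 1.09 on day 7, with 94.0% above 0. Of the sham-higher regions 90.4% were listed on day 4, with a median of -0.19 and 76.7% below 0, and 62.8% on day 7, with a median of -0.96 and 97.1% below 0. Places that were less open in the border zone on day 14 were thus listed on day 4 more often than non-differential ones, with a small difference. Border zone-higher places were listed on day 4 less often. The lists also differ in tags, with median totals on day 14 of 243 (border zone-higher), 327 (sham-higher) and 410 (non-differential). The part of tag number in these shares was not tested. Both differential lists had a lower share listed on day 7 than the non-differential list. A place that is not listed on a day has no measured ratio there.

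**Figure D5:**
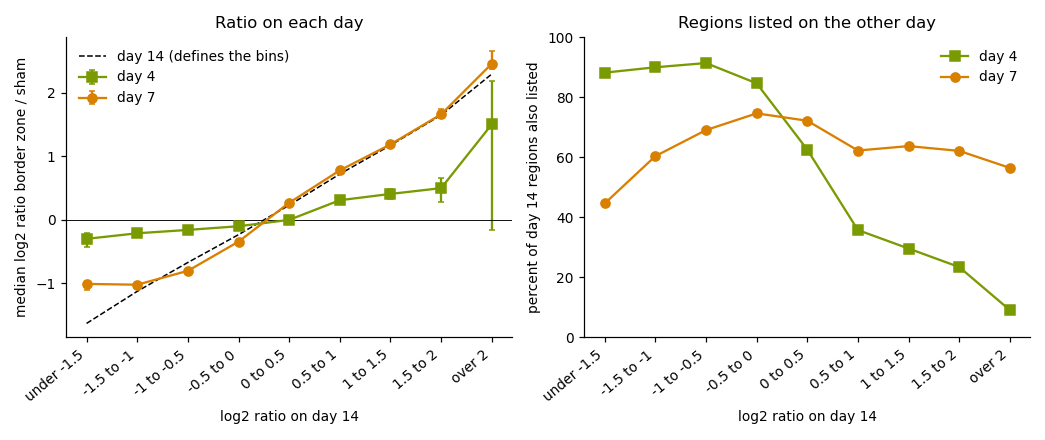
Left, median log2 ratio of border zone over sham on days 4 and 7 of regions binned by their log2 ratio on day 14, with 95% order-statistic intervals and the day 14 medians as a dashed line. Right, percent of the day 14 regions in each bin that are also listed on the other day; on day 4 it is 91.4% for ratios between -1 and -0.5 and 8.97% for ratios over 2.

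Across bins of the day 14 log2 ratio, the day 7 median followed it closely on the border zone side, with 1.19 for regions between 1 and 1.5 and 2.46 for regions over 2. On the sham side it levelled off at -1.03 for regions between -1.5 and -1 and -1.01 for those under -1.5. The day 4 medians in the same bins were 0.41, 1.5, -0.22 and -0.30, the second of them from 14 listed regions. Over all regions of each day, days 4 and 14 both had an SD of the log2 ratio of 0.63, and day 7 had 0.90. Regions of 300 or more tags numbered 10974 of 46827 on day 4, 4711 of 34952 on day 7 and 26950 of 40980 on day 14. Over these, the day 4 SD of the log2 ratio was 0.27, that of day 7 was 0.66 and that of day 14 was 0.53, where counting error gives 0.13, 0.14 and 0.13. On day 4, 1.45% of those regions lay past the fold threshold, against 23.5% on day 7 and 13.1% on day 14. Day 4 nuclei were isolated with an antibody to PCM1 and their reads aligned with another tool, so that day and method cannot be told apart for day 4. The labels give a tamoxifen dose and a number of nuclei for days 7 and 14, but neither for day 4. The median region had 374 tags, against 139 on day 4 and 112 on day 7, which makes day 14 the day with the most tags per region.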

How the data were processed

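BWA, bedtools and the mm9 build are named in the submitters' processing notes, with no version. The sources used here do not say how regions were called, or whether duplicate reads were removed or cut sites shifted. Per the file headers, each list gives a region, sham tags and border zone tags. Sham tags are deposited counts. Border zone tags are a deposited signal, and its scaling was read from the values: 93.1% of values are whole tags times 1.37, 4.48% whole tags times 1.18 and 2.40% sums of such terms, within a relative tolerance of 0.001%. Of the sums, 336 had more than 1 solution, and the middle one was taken, within 7.45% of its tags. The second factor applied to 3.22% of border zone-higher, 12.5% of sham-higher and 4.01% of non-differential regions, and its origin is not given. The summed tags of listed regions, 10334364 in the border zone and 13936013 in sham, are not library depths.

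Whole tags were recovered, divided and centred on the median with Python 3.11.15, pandas 2.3.3, numpy 2.4.6 and scipy 1.17.1, and plotted with matplotlib 3.10.9; the steps were tested on simulated data. Columns were mapped to samples by name, and 0 columns of other samples were used. Named were the 5 regions per direction with the largest fold among those of 300 or more tags on assembled chromosomes, the 3 with the most tags in each list, regions nearest the threshold, and the 5 windows per direction with the largest excess. Members, lists and descriptions, among them tag density, stretches, chains and chromosome ends, were chosen with earlier results of these data known. The 30 RNA-seq samples were not analysed here. The planned description of genes at these regions was not made, because no mm9 annotation was used.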

Additional observations from a re-analysis of the deposited data

Results flagged for a closer look

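The window at chr13:12000001-12100000 went opposite ways on days 4 and 14. Its log2 ratio of border zone over sham tags was 0.15 on day 4, with 2478 border zone tags and 2378 sham tags. On day 7 it was -1.14, with 1027 border zone tags and 3374 sham tags, and on day 14 it was -0.76, with 5843 border zone tags and 13251 sham tags. The counting intervals of all 3 days lie clear of 0. The difference between the days was not tested, since there is 1 library a side on each day, and the isolation of nuclei and the aligner also differ between days 4 and 14. No tamoxifen dose is given for day 4.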

How the results depend on the processing

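No paired analysis was possible because each condition has 1 ATAC library on day 14, and leaving out a library leaves no comparison. On day 14, 5178 border zone-higher and 2876 sham-higher regions were past the fold threshold, with a border zone share of 64.3% and median log2 ratios of 1.07 and -0.97. At 2-fold these were 3128, 1267, 71.2%, 1.25 and -1.14. With 300 or more tags they were 1816, 1718, 51.4%, 1.06 and -0.96. The share was 66.5% with the authors' scaling, 66.0% with 1 factor from the summed tags, 70.6% with the non-differential median as the factor and 62.0% in regions of exactly 1000 bp. Of the medians that moved, -0.96 (authors' scaling), 1.08 and -0.96 (non-differential median) and 1.06 (1000 bp) were close to the first ones. The non-differential median shifts every log2 ratio by 0.05. The shares of regions with a like neighbour, 57.9% and 27.7% at 50 kb, were 40.7% and 17.3% at 20 kb and 82.2% and 53.0% at 200 kb. With 300 or more tags they were 37.1% and 21.9%, and 30.4% of sham-higher regions had one with the direction from the median-centred ratio. With 300 or more tags, 7.63% of regions on X were sham-higher, the first decile of chromosomes was 7.67% border zone-higher, and the last decile was 8.19% border zone-higher and 4.63% sham-higher. A grid shifted by 50 kb gave 11 windows, in place of 7, with 5 or more sham-higher regions in excess. With the authors' scaling 24.8% of regions of 300 or more tags were past the fold on day 7, in place of 23.5%. With the direction from the median-centred ratio of the stretch, 3.09% in place of 4.82% of stretches 1 kb or less from another were sham-higher. The other 41 of 73 values stayed within 1.5 times, or within their counting interval. The 34 named windows and regions kept their sign in all 102 values under another scaling, with a largest shift of 0.07 on the log2 scale. The limit of 300 tags for neighbours, chromosomes and positions, and the alternatives on stretches and on regions scaled with the first factor, were chosen after the data were seen.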
